A study of Mus musculus with 14 samples.

Results

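Mouse liver RNA was sequenced from 4 genotype-by-treatment groups, and the 10 genes described here carry, take up, store, reduce or export iron, or set how much of it leaves cells. They are Hamp, Slc40a1, Tfr2, Tfrc, Trf, Cp, Steap4, Steap3, Fth1 and Ftl1, which is 10 of the 24411 genes in the deposited count files. The genes were picked by name as a group of iron genes, with earlier results on these samples known. Steap4 was known as one of the largest differences between tunicamycin and vehicle in wild-type liver, so the values of that comparison chose members and are given below as a description, with no test.

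The animals were male littermates of 5 to 7 months. Wild-type (WT) mice carried Rbbp5 (flox/flox) with Alb-CRE (-/-), so both genotypes share the floxed alleles. The liver knockout carried Rbbp5 (flox/flox) with Alb-CRE (+/-), in which the albumin promoter drives Cre in hepatocytes and other liver cells keep the gene. It is spelled RRBP5 LKO on the sample labels and RBBP5 LKO in the design text, and is called LKO here. Rbbp5 encodes a core subunit of the COMPASS complexes that methylate histone H3 at lysine K4. Mice received 0.05 mg/kg tunicamycin, which blocks the first step of protein N-glycosylation and so causes endoplasmic reticulum (ER) stress, in 500 µl of 3% DMSO in PBS, or the same solvent alone. The peritoneal injection fell between 9 and 10 am, and the liver was collected 8 h after it. The question set by the design is how the hepatic response to acute ER stress differs without RBBP5.

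Hepatocytes make the hormone hepcidin (Hamp), which binds the iron exporter ferroportin (Slc40a1) and has it degraded, so that a high hepcidin level keeps iron inside macrophages and gut cells. Hamp transcription is driven by bone morphogenetic protein (BMP) and SMAD signalling, which reads iron stores through HFE, hemojuvelin and transferrin receptor 2, and by interleukin-6 through STAT3. Ferritin, ferroportin and transferrin receptor 1 are also set after transcription by iron regulatory proteins, which bind stem-loops called iron-responsive elements, so their mRNA levels do not show all of their control.

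The sequences behind these inputs are shown first, because Hamp and Steap4, whose levels are compared in most detail below, each have a STAT-type motif near the start of transcription. The stretches come from the RefSeq promoter table for GRCm38.p6 and are read 5′ to 3′ along the gene's strand. In Hamp (chr7:30944080-30944159, minus strand, 130 to 51 bases upstream of the start) the capitals mark GGCGCC, the core of a BMP-responsive element, and a match to the STAT motif TTCNNNGAA. The same stretch of Hamp2 (chr7:30924229-30924308, minus strand, 127 to 48 bases upstream), the neighbouring gene copy, keeps the STAT match. In Steap4 (chr5:7960292-7960411, plus strand, 180 to 61 bases upstream) the capitals mark a STAT match and a match to the C/EBP motif TTGCGNAA.
Hamp: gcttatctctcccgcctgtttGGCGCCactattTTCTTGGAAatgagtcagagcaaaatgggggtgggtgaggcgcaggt
Hamp2: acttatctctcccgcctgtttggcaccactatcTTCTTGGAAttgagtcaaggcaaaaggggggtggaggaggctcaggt
Steap4: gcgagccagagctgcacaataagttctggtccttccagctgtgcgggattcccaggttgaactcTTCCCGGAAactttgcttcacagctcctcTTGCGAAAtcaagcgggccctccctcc

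The Hamp and Hamp2 stretches were identical at 70 of 80 positions. At the GGCGCC core they differed by G4A, counted from 1 at the 5′ base of the core with the Hamp base first. Over both strands of the 250 bases upstream of each start, TTCNNNGAA was found in 7.02% of 32851 windows, GGCGCC in 9.59% and TTGCGNAA in 0.670%. The core of the unfolded protein response element, TGACGTGG, was in 0.563% of windows and the ER stress response element (CCAAT and CCACG set 9 bases apart) in 0.113%. None of the members with an entry held either of these last motifs in its window. Besides Hamp and Steap4, a match was found in Tfrc only, a GGCGCC 89 bases upstream of 1 of its 2 starts. The windows of Steap3 (4 starts), Tfr2 (3), Fth1 (2), Ftl1 (1) and Cp (2) held no match to the 5 motifs. A match is a run of letters and was not tested as a binding site.

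Iron-responsive elements were searched in GENCODE M21 transcripts as a loop CAGTGN with the 5 bases on each side of it able to pair and an unpaired C before them. They were found in the 5′ UTR of Fth1, Ftl1 and Slc40a1, where a bound regulatory protein blocks translation, and 4 times in the 3′ UTR of Tfrc, where it protects the mRNA. Capitals mark the loop. Such an element was found in the 5′ UTR of 0.0966% of 21745 genes and in the 3′ UTR of 0.451%, and in none of the other members.
Fth1 5′ UTR, chr19:9982732-9982761, plus strand: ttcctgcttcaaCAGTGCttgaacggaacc
Ftl1 5′ UTR, chr7:45459778-45459807, minus strand: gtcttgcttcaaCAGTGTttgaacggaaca
Slc40a1 5′ UTR, chr1:45925464-45925493, minus strand: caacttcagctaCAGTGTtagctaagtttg
Tfrc 3′ UTR, chr16:32631219-32631248, plus strand: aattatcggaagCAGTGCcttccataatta
Tfrc 3′ UTR, chr16:32631598-32631627, plus strand: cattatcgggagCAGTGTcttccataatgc
Tfrc 3′ UTR, chr16:32631663-32631692, plus strand: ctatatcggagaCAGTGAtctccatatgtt
Tfrc 3′ UTR, chr16:32631710-32631739, plus strand: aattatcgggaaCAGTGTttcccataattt

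The data were 14 libraries, 3 from each WT group and 4 from each LKO group. LKO vehicle 3 and 4 differed by little more than sampling noise (chi-square per degree of freedom 1.12, against 3.05 to 25.5 in 17 other pairs) and were summed, which leaves 3, 3, 3 and 4 samples. Reads on genes numbered 6507018 to 13519421 per library, of which 72.5% to 75.5% fell on the ribosomal RNA gene Rn45s. Rbbp5 itself had 4.07 to 6.41 CPM (reads scaled to a common library size) in the 6 WT samples, 1.90 to 4.15 in LKO vehicle and 2.06 to 3.46 in LKO tunicamycin. Its log2 fold change in LKO was -0.87 ± 0.26 (SE) with vehicle (edgeR adjusted p = 0.330) and -0.90 ± 0.25 after tunicamycin (edgeR adjusted p = 0.105), and only the samples given tunicamycin did not overlap.

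A pair of samples stood apart from their groups over 3958 genes other than the members. WT tunicamycin 3 had a mean Pearson r of 0.972 with WT vehicle and 0.927 with the other WT tunicamycin samples, and LKO vehicle 2 had 0.974 with LKO tunicamycin and 0.965 with its own group. The groups are close in general: WT tunicamycin 1 and 2 (0.949 each with their own group) had 0.952 and 0.969 with LKO tunicamycin, and the summed LKO vehicle sample had 0.974 with WT vehicle and 0.964 with its own group. In WT tunicamycin 1, 2 and 3 the ER chaperone gene Hspa5 had 854, 313 and 786 CPM, and WT vehicle reached at most 253 CPM. The stress factor gene Ddit3 had 26.3, 1.30 and 20.4 CPM there, where vehicle reached at most 1.89 CPM. WT tunicamycin 3 and LKO vehicle 2 are treated apart because each was closest to the group of the other treatment. WT tunicamycin 3 had raised ER stress genes, and WT tunicamycin 2 had the lowest of the 3. In LKO vehicle 2 Hspa5 was at 117 CPM and Ddit3 at 0.438 CPM, within or below the range of other LKO samples. The other LKO vehicle samples had 127 and 173 CPM of Hspa5, and LKO tunicamycin 142 to 229 CPM. For Ddit3 they had 0.474 and 0.831 CPM, and LKO tunicamycin 0.390 to 2.04 CPM. These ranges overlap, so the 2 genes do not place LKO vehicle 2 in either treatment. Some results that rest on WT tunicamycin 3 or LKO vehicle 2 are given with and without it. Others, such as Hpx, Hp and Fdx1 in WT, are given with all samples only. WT tunicamycin 3 and LKO vehicle 2 were singled out after their values were seen. Leaving them out widens the contrasts of tunicamycin with vehicle over genes in general by construction. The differences between genotypes moved either way, as the values below show.

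Among the members, the secreted carriers Trf and Cp and the reductase Steap4 had high levels in the same samples, hepcidin had another pattern, and the receptor Tfr2 hardly varied. All levels in CPM use library sizes scaled by TMM (edgeR), and a called gene is one whose p, adjusted after Benjamini and Hochberg over the 9644 genes tested, was below 0.05. All 10 members passed the filter on low counts. Steap4 was called in WT given tunicamycin, 1 of 10 members, where 0.363% of all genes tested were called, and nothing is read from that count because the comparison chose it. No member was called for tunicamycin in LKO (0.0311% of all genes), for LKO against WT with vehicle (0.0415%), for LKO against WT after tunicamycin (0.861%) or for the interaction (0% of all genes). DESeq2 likewise called 0 members in these 4 comparisons. At an unadjusted edgeR p under 0.05 there were 4 members for tunicamycin in LKO, against 12.2% of all genes, and 1 for LKO with vehicle, against 8.15%. There were 4 for LKO after tunicamycin, against 15.8%, and 1 for the interaction, against 4.91%.

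**Figure D1:**
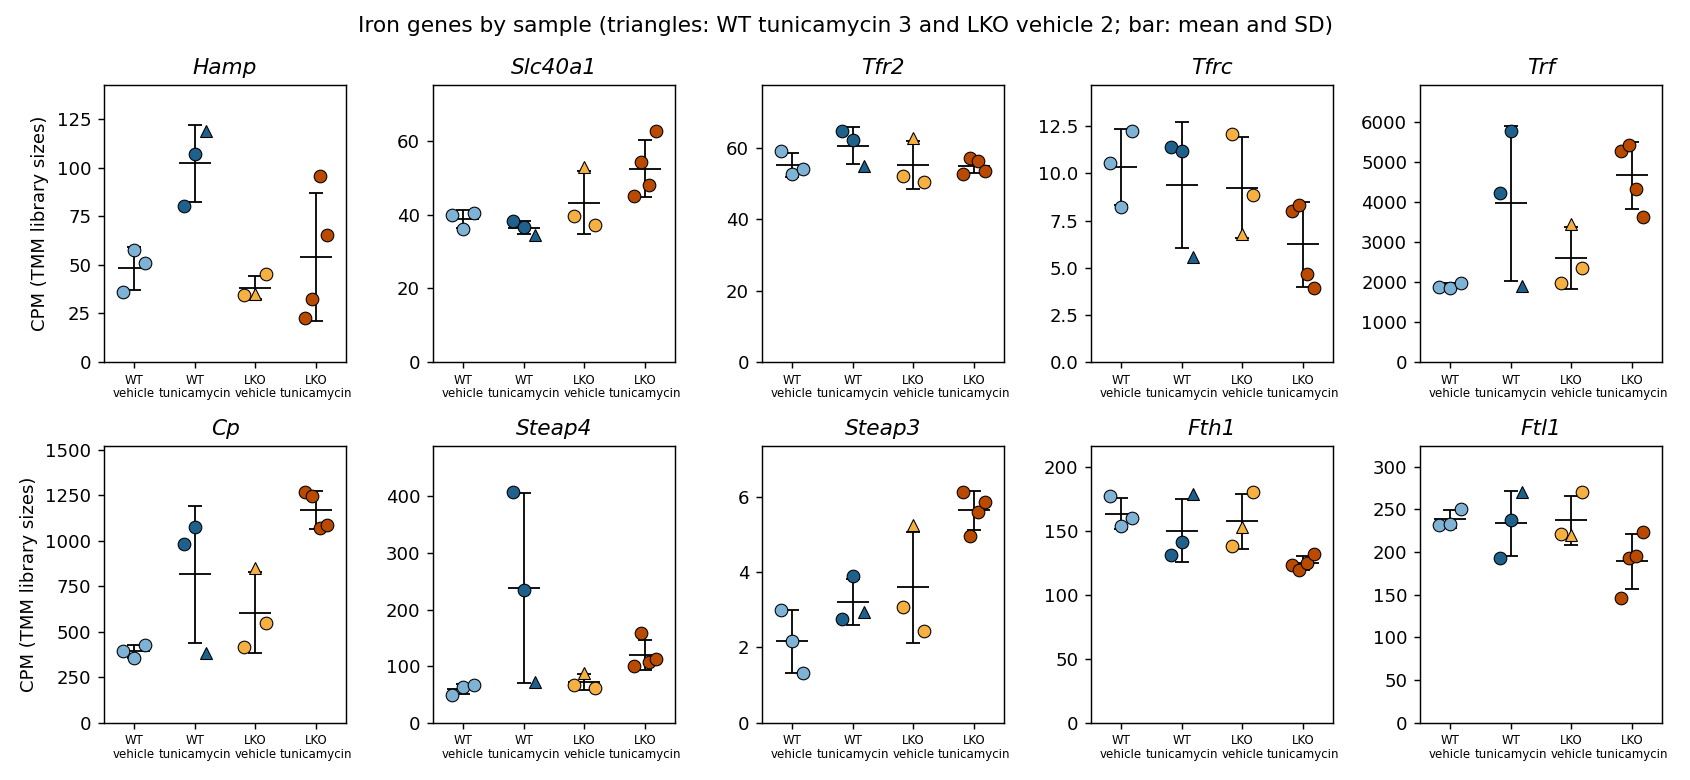
CPM of the 10 iron genes (vertical axis, from 0) in each sample of the 4 groups (horizontal axis), with the group mean and SD as bars. Triangles mark WT tunicamycin 3 and LKO vehicle 2: in WT tunicamycin 3, Trf, Cp and Steap4 sat at 1907, 385 and 71.9 CPM, near the WT vehicle samples, while Hamp was at 119 CPM.

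Hepcidin comes first as the regulator. Hamp (chr7:30942368-30944032, minus strand, mm10) stood at 35.9, 57.7 and 50.7 CPM in WT vehicle and at 80.5, 107 and 119 CPM in WT tunicamycin. Every WT tunicamycin sample lay above every WT vehicle sample, and the highest was WT tunicamycin 3, the sample in which the carriers were low. The group means were 48.1 ± 11.1 (SD, n = 3) and 102 ± 19.7 CPM (SD, n = 3), a log2 fold change of 1.09 ± 0.36 (SE). Of Hamp, Trf, Cp and Steap4, only Hamp was not close to its vehicle level in WT tunicamycin 3.

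In LKO, Hamp stood at 34.6, 34.9 and 45.3 CPM with vehicle and at 22.8, 32.4, 95.6 and 65.3 CPM after tunicamycin. LKO tunicamycin 1 and 2 were below all LKO vehicle samples and LKO tunicamycin 3 and 4 above them, so the group had no common direction. The log2 fold change was 0.50 ± 0.34 (edgeR adjusted p = 0.609), and it ranged from 0.07 to 0.75 as single samples were left out. With vehicle, LKO minus WT was -0.33 ± 0.36 (edgeR adjusted p = 0.866). After tunicamycin it was -0.91 ± 0.33 (edgeR adjusted p = 0.203), with LKO tunicamycin 3 inside the WT range, and this comparison shares the WT tunicamycin samples with the one that chose members. Without the filter on low counts it passed (-0.91, edgeR adjusted p = 0.0169). The difference between the tunicamycin effects was -0.59 ± 0.49 (edgeR adjusted p = 0.982). Hamp had 171 to 938 reads per sample. The Hamp and Hamp2 mRNAs were identical at 388 of 410 aligned bases (94.6%), so reads could be lost or split between the copies.

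Ferroportin, the only known cellular iron exporter and the target of hepcidin, had its largest fold change between the genotypes after tunicamycin. Slc40a1 (chr1:45908068-45926523, minus strand) stood at 39.8, 36.1 and 40.5 CPM in WT vehicle and at 38.1, 36.5 and 34.6 CPM in WT tunicamycin. In LKO it stood at 39.6, 53.0 and 37.1 CPM with vehicle and at 45.03, 54.3, 48.0 and 62.6 CPM after tunicamycin. All 4 LKO tunicamycin samples were above all 6 WT samples, while LKO vehicle overlapped both. After tunicamycin LKO minus WT was 0.53 ± 0.14 on the log2 scale (edgeR adjusted p = 0.0880), which did not pass, and the value was positive in all 26 alternative analyses. Under total count scaling it was 0.68 (edgeR adjusted p = 0.0348), where the median of all genes moved by 0.15. Without a filter on low counts it was 0.53 (edgeR adjusted p = 0.0477). The tunicamycin effect was -0.09 ± 0.15 in WT and 0.28 ± 0.14 in LKO (edgeR adjusted p = 0.434), and with vehicle LKO minus WT was 0.16 ± 0.15 (edgeR adjusted p = 0.827), or -0.02 without LKO vehicle 2.

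Macrophages of the liver also express Slc40a1, and in bulk tissue fewer cells of a type and less RNA per cell cannot be told apart. The summed level of 10 Kupffer cell and macrophage markers, all with reads in every group, was 54.3 to 65.9 CPM in WT vehicle and 62.5 to 81.2 CPM in WT tunicamycin. It was 42.7 to 69.6 CPM in LKO vehicle and 67.3 to 129 CPM in LKO tunicamycin. The LKO tunicamycin samples with the highest marker sums, 2 and 4 (129 and 113 CPM), also had the highest Slc40a1. Other samples differed from this order. WT tunicamycin 1 and 2 had higher sums (81.2 and 74.1 CPM) than LKO tunicamycin 1 and 3 (68.4 and 67.3 CPM), but lower Slc40a1. LKO vehicle 2 and the summed LKO vehicle sample had sums of 69.6 and 69.1 CPM, with Slc40a1 at 53.0 and 37.1 CPM. The part of these cells in the Slc40a1 values was not tested.

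The receptors did not follow hepcidin. Tfr2 (chr5:137569840-137587481, plus strand), a hepatocyte sensor of iron-loaded transferrin, lay between 50.3 and 64.7 CPM in all 13 samples. Its log2 fold changes were 0.13 ± 0.12 for tunicamycin in WT and -0.0030 ± 0.11 in LKO (edgeR adjusted p = 0.997). LKO minus WT was -0.0035 with vehicle (edgeR adjusted p = 0.997) and -0.14 after tunicamycin (edgeR adjusted p = 0.579). The sign of these values changed between analyses, and all stayed between -0.21 and 0.20.

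Tfrc (chr16:32608920-32632794, plus strand), transferrin receptor 1, which brings transferrin-bound iron into cells, was scarce, with 36 to 149 reads per sample. It ranged from 8.20 to 12.2 CPM in WT vehicle, 5.56 to 11.4 in WT tunicamycin, 6.79 to 12.1 in LKO vehicle and 3.91 to 8.33 in LKO tunicamycin. The LKO tunicamycin range was the lowest but overlapped each of the others. The log2 fold change for tunicamycin in LKO was -0.57 ± 0.28 (edgeR adjusted p = 0.432), and LKO minus WT after tunicamycin was -0.62 ± 0.29 (edgeR adjusted p = 0.318). Erythroid cells are rich in Tfrc, and their marker sum was 19.0 to 26.1 CPM in WT vehicle, 11.7 to 19.3 in WT tunicamycin, 16.7 to 22.0 in LKO vehicle and 12.02 to 15.5 in LKO tunicamycin. Of these 8 markers, 4 had reads, the globin genes Hba-a1, Hba-a2, Hbb-bs and Hbb-bt were listed at 0 in every group, and the part of such cells in the Tfrc values was not tested.

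Transferrin and ceruloplasmin, the plasma proteins that carry ferric iron and oxidise ferrous iron for loading, had high counts and differed widely between samples. Trf (chr9:103204001-103230444, minus strand) stood at 1873, 1838 and 1971 CPM in WT vehicle and at 4224, 5778 and 1907 CPM in WT tunicamycin. WT tunicamycin 1 and 2 were far above WT vehicle and WT tunicamycin 3 lay inside its range. In LKO, Trf stood at 1984, 3459 and 2357 CPM with vehicle and at 5287, 5427, 4327 and 3633 CPM after tunicamycin. All LKO tunicamycin samples exceeded all LKO vehicle samples, and LKO vehicle 2 came closest to them.

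The Trf log2 fold change was 1.07 ± 0.32 for tunicamycin in WT and 0.84 ± 0.30 in LKO (edgeR adjusted p = 0.288). Without both samples that stood apart, it was 1.40 ± 0.19 in WT and 1.10 ± 0.19 in LKO, where it passed (edgeR adjusted p = 0.00566). With vehicle every LKO sample was above every WT sample, though LKO minus WT was 0.46 ± 0.31 (edgeR adjusted p = 0.740). After tunicamycin LKO minus WT was 0.23 ± 0.29 (edgeR adjusted p = 0.751), and -0.10 without WT tunicamycin 3.

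Cp (chr3:19957054-20009145, plus strand), a copper ferroxidase, had the same samples near and above vehicle level as Trf, though not in the same order. It stood at 391, 358 and 427 CPM in WT vehicle and at 985, 1078 and 385 CPM in WT tunicamycin. In LKO it stood at 414, 850.1 and 547 CPM with vehicle and at 1269, 1247, 1071 and 1087 CPM after tunicamycin. WT tunicamycin 3 was again inside the WT vehicle range, and LKO vehicle 2 lay between the other LKO vehicle samples and the LKO tunicamycin samples. For tunicamycin the log2 fold change was 1.06 ± 0.31 in WT and 0.95 ± 0.29 in LKO (edgeR adjusted p = 0.247).

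The Cp value in LKO passed without WT tunicamycin 3, which is in neither LKO group but enters the shared estimate of the spread (0.95, edgeR adjusted p = 0.0337). It also passed without both samples (1.28 ± 0.16, edgeR adjusted p = 0.000272) and without the filter on low counts (0.94, edgeR adjusted p = 0.0208). LKO minus WT was 0.62 ± 0.30 with vehicle (edgeR adjusted p = 0.618), or 0.29 without LKO vehicle 2. After tunicamycin it was 0.52 ± 0.29 (edgeR adjusted p = 0.397), or 0.18 without WT tunicamycin 3. The interactions were -0.22 ± 0.43 for Trf and -0.10 ± 0.41 for Cp (edgeR adjusted p = 0.999 for both).

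The metalloreductases of the STEAP family turn ferric into ferrous iron so that it can cross membranes. Steap4 (chr5:7960457-7982213, plus strand), an inflammation- and nutrient-responsive member, stood at 49.6, 63.0 and 66.5 CPM in WT vehicle and at 408, 234 and 71.9 CPM in WT tunicamycin. WT tunicamycin 3 was just above WT vehicle, so the WT mean of 238 ± 168 CPM (SD, n = 3) rests on WT tunicamycin 1 and 2. The log2 fold change there was 1.997 ± 0.40, and 2.43 ± 0.22 without the samples that stood apart. This is the value that chose the gene.

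In LKO, Steap4 stood at 65.9, 87.5 and 61.2 CPM with vehicle and at 100.5, 159, 108 and 113 CPM after tunicamycin. The ranges did not overlap, and no LKO tunicamycin sample reached WT tunicamycin 1 or 2. The tunicamycin effect in LKO was 0.75 ± 0.36 (edgeR adjusted p = 0.427), and without both samples that stood apart it was 0.92 ± 0.22 and passed (edgeR adjusted p = 0.0319). With vehicle LKO minus WT was 0.26 (edgeR adjusted p = 0.910).

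LKO minus WT after tunicamycin was -0.99 ± 0.35 for Steap4 (edgeR adjusted p = 0.196), with all LKO values between WT tunicamycin 3 and the other WT samples. Without WT tunicamycin 3 it was -1.42 (edgeR adjusted p = 0.00806), and without both samples -1.42 ± 0.20 (edgeR adjusted p = 0.00384). Without WT tunicamycin 1, the highest sample, it was -0.35. It was -0.98 without the filter on low counts (edgeR adjusted p = 0.0131). Since these samples also chose the gene, this comparison is not independent of the choice. The interaction was -1.25 ± 0.53 (edgeR adjusted p = 0.938). Trf and Cp had another order, since Cp in LKO tunicamycin (1071 to 1269 CPM) lay beside WT tunicamycin 1 and 2 (985 and 1078 CPM), while Steap4 lay below them.

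Steap3 (chr1:120190757-120272705, minus strand), the endosomal reductase that acts after transferrin uptake, had few reads, 9 to 72 per sample. It stood at 2.99, 2.18 and 1.31 CPM in WT vehicle, 2.75, 3.89 and 2.93 CPM in WT tunicamycin and 3.08, 5.26 and 2.43 CPM in LKO vehicle. In LKO tunicamycin it stood at 6.13, 4.94, 5.60 and 5.86 CPM, above every WT sample. After tunicamycin LKO minus WT was 0.83 ± 0.28 (edgeR adjusted p = 0.172). The tunicamycin effect in LKO was 0.65 ± 0.25 (edgeR adjusted p = 0.316), and it passed without both samples that stood apart (1.06 ± 0.24, edgeR adjusted p = 0.0273). With vehicle LKO minus WT was 0.70 ± 0.31 (edgeR adjusted p = 0.570), or 0.29 without LKO vehicle 2.

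Ferritin stores iron in a shell of heavy (Fth1) and light (Ftl1) chains. Fth1 (chr19:9980598-9985098, plus strand) ranged from 153 to 177 CPM in WT vehicle, 131 to 178 in WT tunicamycin, 138 to 180.3 in LKO vehicle and 119.6 to 132 in LKO tunicamycin. The 4 LKO tunicamycin samples lay below all LKO vehicle samples, and 1 of them was above WT tunicamycin 1. Ftl1 (chr7:45457944-45459884, minus strand) ranged from 232 to 251, 194 to 270.3, 220.03 to 271 and 146 to 223 CPM in the same groups, with overlap in each comparison of tunicamycin and vehicle. The tunicamycin effect in LKO was -0.33 ± 0.13 for Fth1 (edgeR adjusted p = 0.334) and -0.33 ± 0.16 for Ftl1 (edgeR adjusted p = 0.415), negative for both in all 26 alternatives. In WT the values were -0.12 and -0.03, and LKO minus WT with vehicle was -0.05 and -0.01. Both ferritin chains have processed pseudogenes, so reads that fit several places could be lost from the counts.

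**Figure D2:**
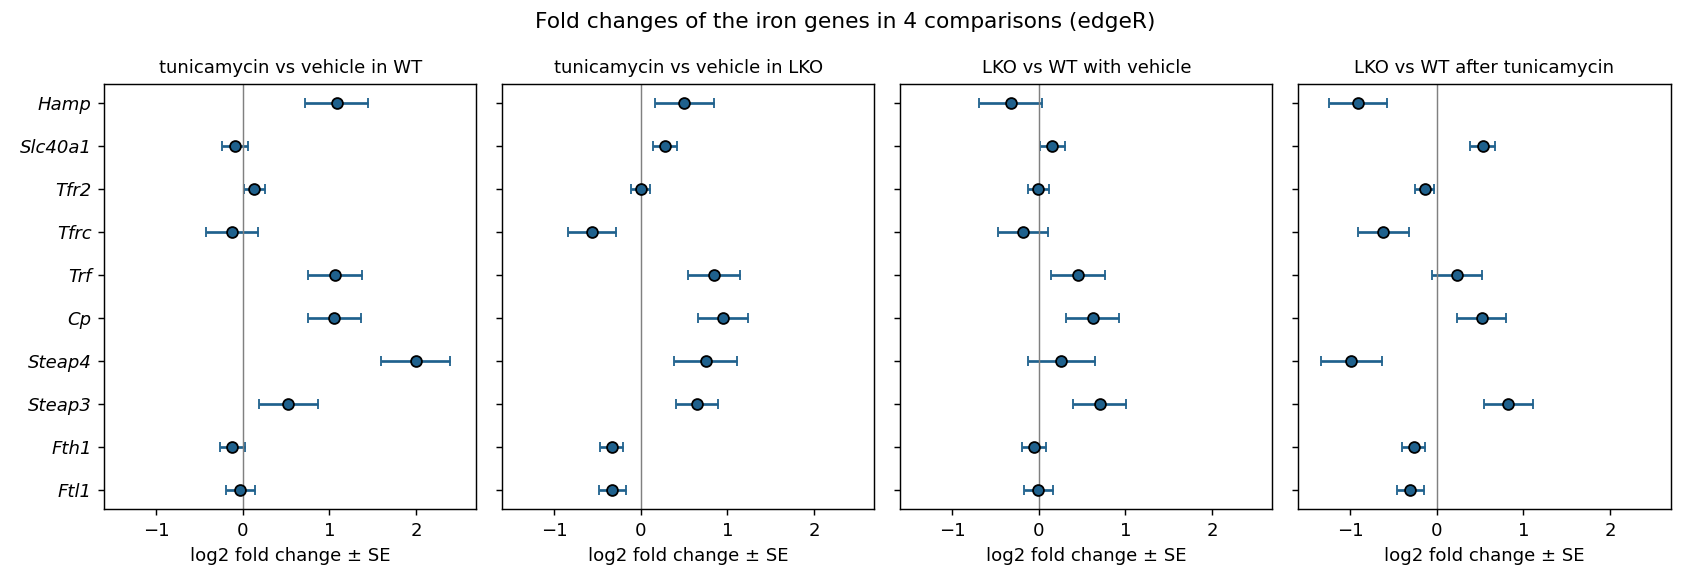
Log2 fold change with its SE (horizontal axis, edgeR, all 13 samples) for each iron gene (vertical axis) in 4 comparisons. Steap4 is at 1.997 in WT and 0.75 in LKO, Trf and Cp lie near 1 in both genotypes, and Tfr2 lies at or near 0 in each panel.

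Counted by samples that do not overlap, 2 members were higher and 0 lower for tunicamycin in WT, where 17.3% of all genes tested had groups without overlap, and nothing is read from this count. In LKO 3 were higher and 1 lower, against 11.6% of all genes. For LKO against WT, 1 member was higher with vehicle (Trf), against 15.1%, and 2 were higher after tunicamycin (Slc40a1 and Steap3), against 12.9%. The members' median log2 fold changes in these 4 comparisons were 0.33, 0.39, 0.08 and -0.20, and the medians over all genes tested were 0.01, 0.00, 0.00 and -0.01. The first of these medians belongs to the comparison that chose members and is a description.

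Without WT tunicamycin 3 and LKO vehicle 2, more of the members passed. In LKO, 4 of 10 (Steap3, Steap4, Trf and Cp) were called for tunicamycin, all higher, where 2.72% of all genes were called. Nothing is read from that count, since the removed LKO vehicle 2 had the highest LKO vehicle level of each of these genes. In WT 3 of 10 (Steap4, Trf and Cp) were called, against 6.57% of all genes, and nothing is read from that count either. After tunicamycin 1 of 10 (Steap4, lower in LKO) was called, against 0.798%, and nothing is read from that count, since the WT tunicamycin samples that remain are those whose high values chose the gene. With vehicle 0 of 10 were called, against 0.212%. WT tunicamycin is then represented by 2 samples and LKO vehicle by 2.

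The wider set of iron and heme genes was taken from 4 lists of 74 genes in the files, of which 66 were tested. Hemopexin (Hpx), which binds free heme in plasma, was the 1 gene called, in WT, where edgeR called 0.363% of all genes tested. DESeq2 called 4 of 55 there, and 152 among all genes. No gene of the lists was called in the other 4 comparisons by edgeR or DESeq2, where edgeR called 0% to 0.861% of all genes tested. At an unadjusted edgeR p under 0.05 there were 13 of 66 for tunicamycin in WT, where 14.8% of all genes tested reached it, and 12 in LKO, against 12.2%. There were 5 between genotypes with vehicle, against 8.15%, 7 between them after tunicamycin, against 15.8%, and 1 for the interaction, against 4.91%. After tunicamycin 49 of the 66 had a negative LKO minus WT value, with a median of -0.13 against -0.01 over all genes tested. Under total count scaling the median of all genes in that comparison shifts by 0.15.

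Hpx, Hp and Lcn2, named because of their calls or the size of their fold changes, were also near their vehicle levels in WT tunicamycin 3. Hpx stood at 443, 504 and 626 CPM in WT vehicle, 2787, 2901 and 696 in WT tunicamycin, 796, 1774 and 794 in LKO vehicle and 2254, 2657, 2361 and 2071 in LKO tunicamycin. WT tunicamycin 3 was thus near the vehicle samples and LKO vehicle 2 between the other LKO vehicle samples and the LKO tunicamycin samples. Its log2 fold change was 2.02 ± 0.41 in WT (edgeR adjusted p = 0.0427). That call was lost with only the groups compared, with a replicate block, from FPKM, and on leaving out any WT vehicle sample, WT tunicamycin 1 or 2, or any LKO tunicamycin sample, where 0 genes of the lists were called. Haptoglobin (Hp), which binds free hemoglobin, had 357 to 479 CPM in WT vehicle, 2232, 2466 and 453 in WT tunicamycin, 566 to 1332 in LKO vehicle and 1656 to 2024 in LKO tunicamycin. Its log2 fold change was 2.08 ± 0.45 in WT and 1.15 ± 0.42 in LKO (edgeR adjusted p = 0.296).

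Lipocalin 2 (Lcn2), which captures bacterial iron-binding siderophores, had the widest span. It stood at 4.07, 3.33 and 8.45 CPM in WT vehicle, 365, 378 and 5.56 in WT tunicamycin, 21.8, 285 and 32.6 in LKO vehicle and 413, 483, 298 and 307 in LKO tunicamycin. Every LKO vehicle sample was above every WT vehicle sample, also without LKO vehicle 2. With vehicle, LKO minus WT was 4.44 ± 1.13 (edgeR adjusted p = 0.260), and without both samples that stood apart it was 2.40 ± 0.30 and passed (edgeR adjusted p = 0.00203). The tunicamycin effect in LKO was 1.72 ± 0.90 (edgeR adjusted p = 0.469), or 3.77 ± 0.29 without both samples (edgeR adjusted p = 3.51e-06). Neither of these passes is read as a result. The removed LKO vehicle 2 had the highest LKO vehicle level of Lcn2, and 2 LKO vehicle samples remain.

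Neutrophils also make Lcn2 and Hp. The sum of 7 neutrophil markers was 0.128 to 0.875 CPM in WT vehicle, 7.98, 4.54 and 0.463 in WT tunicamycin, 0.474, 2.63 and 0.653 in LKO vehicle and 3.46 to 8.46 in LKO tunicamycin. It was thus higher in the samples with high Lcn2, though it never exceeded 8.46 CPM. In WT vehicle 5 of the 7 (Retnlg, Mpo, Elane, Ngp and Camp) were at 0. The part of these cells in the values of Lcn2, Hp and the members was not tested.

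**Figure D3:**
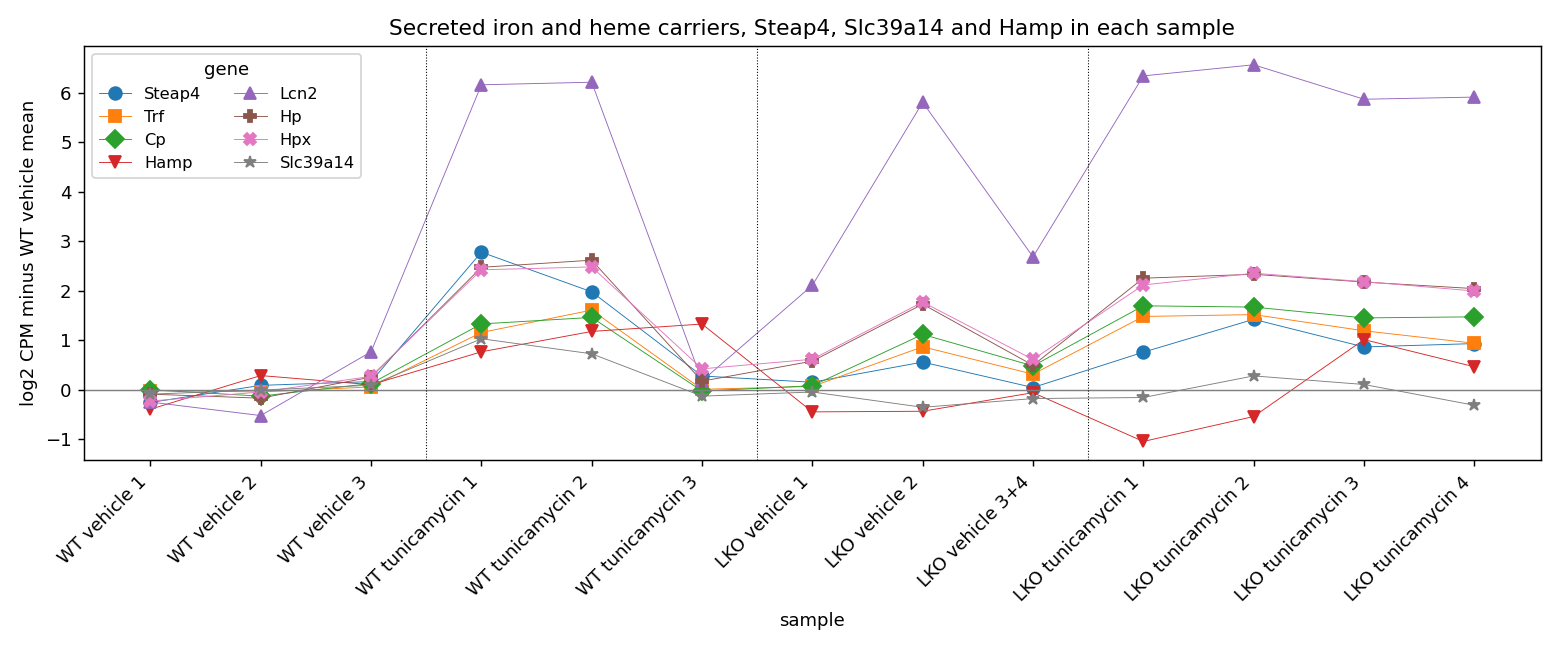
Log2 CPM of 8 iron and heme genes in each sample (horizontal axis) minus the gene's mean over WT vehicle (vertical axis). Lines join the points of a gene and show no order among samples. Lcn2, Hpx, Hp, Cp, Trf and Steap4 are up in WT tunicamycin 1 and 2 and LKO tunicamycin 1 to 4, less so in LKO vehicle 2 and at most slightly in WT tunicamycin 3, whereas Hamp is at its highest in WT tunicamycin 3.

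Among the hepcidin regulators, 20 genes were tested and none was called, with 3 at an unadjusted p under 0.05 in WT (14.8% of all genes) and 5 in LKO (12.2%) for tunicamycin. Hemojuvelin (Hfe2), the BMP co-receptor needed for Hamp expression, had 4.66 to 7.18 CPM in WT vehicle and 8.34 to 13.6 in WT tunicamycin, with no overlap. In LKO it had 6.35 to 11.9 CPM with vehicle and 11.1 to 14.6 after tunicamycin. Its log2 fold change was 0.86 ± 0.26 in WT (edgeR adjusted p = 0.129) and 0.62 ± 0.21 in LKO (edgeR adjusted p = 0.278). Without both samples that stood apart it passed in WT (1.01, edgeR adjusted p = 0.00694) and in LKO (0.97, edgeR adjusted p = 0.00854). These passes are not read as results, since the removed samples had the lowest WT tunicamycin and the highest LKO vehicle level of Hfe2. Hfe had 5.84 to 7.16 CPM in WT tunicamycin and 3.60 to 4.89 CPM in LKO tunicamycin, a log2 difference of -0.58 ± 0.17 (edgeR adjusted p = 0.117) with no overlap. Bmp6 and Id1, an iron-induced ligand and a SMAD target, did not pass the filter on low counts.

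Of the import genes, Slc39a14, which encodes the ZIP14 importer of free iron, was likewise higher in WT tunicamycin 1 and 2 than in any other sample. It stood at 48.7, 51.6 and 55.2 CPM in WT vehicle, 106, 85.9 and 47.4 in WT tunicamycin, and ranged from 40.5 to 50.2 in LKO vehicle and 41.7 to 63.0 in LKO tunicamycin. LKO minus WT after tunicamycin was -0.63 ± 0.20 (edgeR adjusted p = 0.153), and -0.90 without WT tunicamycin 3 (edgeR adjusted p = 0.0163). The latter is not read as a result, since WT tunicamycin 3 had the lowest WT tunicamycin level of Slc39a14. Heme oxygenase 1 (Hmox1), which frees iron from heme, had 2.63 to 3.84 CPM in WT vehicle and 4.63 to 9.22 in WT tunicamycin without overlap. Its log2 fold change was 1.03 ± 0.33 in WT (edgeR adjusted p = 0.160) and 0.39 ± 0.29 in LKO (edgeR adjusted p = 0.651), and LKO minus WT after tunicamycin was -0.59 ± 0.29 (edgeR adjusted p = 0.339).

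Of the 15 tested genes of iron sensing and iron-sulfur cluster assembly, those whose mean log2 CPM was 2 or more were ranked by fold change. The cysteine desulfurase gene Nfs1 had the largest absolute log2 fold change for tunicamycin in LKO, -0.38 ± 0.12 (edgeR adjusted p = 0.247), with 7.85 to 10.02 CPM against 11.1 to 11.3 CPM with vehicle and no overlap. In WT it was the ferredoxin gene Fdx1 at -0.48, which had 14.2, 10.7 and 24.7 CPM in WT tunicamycin 1, 2 and 3 and 21.6 to 24.2 CPM in WT vehicle. For LKO against WT it was Glrx5 with vehicle (-0.40, edgeR adjusted p = 0.633) and Iscu after tunicamycin (-0.28, edgeR adjusted p = 0.318).

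Levels between genes were compared per length, as deposited FPKM. In WT vehicle the order was Trf at 294 ± 13.4, Ftl1 at 158 ± 8.61, Hamp at 92.5 ± 24.8, Fth1 at 87.2 ± 7.29, Cp at 39.0 ± 3.18 and Steap4 at 9.26 ± 1.54 FPKM (SD, n = 3). Below them were Tfr2 at 5.87 ± 0.576, Slc40a1 at 5.49 ± 0.458, Tfrc at 0.868 ± 0.176 and Steap3 at 0.370 ± 0.126 FPKM (SD, n = 3). Hamp overlapped Fth1 and Tfr2 overlapped Slc40a1, and the other neighbours did not overlap. In WT tunicamycin Hamp was second at 188 ± 20.7 FPKM (SD, n = 3), above Ftl1 without overlap. In LKO tunicamycin Cp came after Ftl1 at 119 ± 7.59 FPKM (SD, n = 4), overlapping Ftl1 and Hamp, and Steap3 at 1.04 ± 0.142 was above Tfrc at 0.535 ± 0.183 FPKM (SD, n = 4) without overlap. The FPKM of LKO vehicle 2 sum to 99386, against 156509 to 169701 in the other libraries. Members with similar CPM in LKO vehicle did not share this lower level. Hamp had 65.9 FPKM in LKO vehicle 2, against 64.9 and 89.9 in the other LKO vehicle samples. Ftl1 had 156 FPKM, against 147 and 188. Which entries account for the low sum was not tested.

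**Figure D4:**
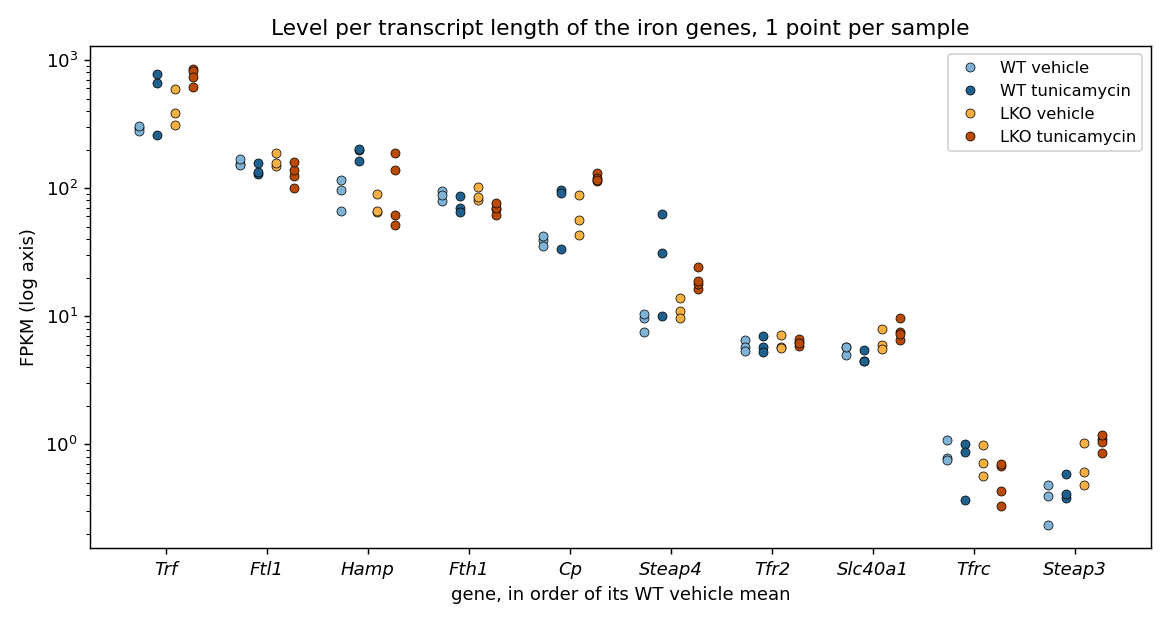
FPKM of each iron gene on a log axis (vertical), genes ordered by their WT vehicle mean (horizontal), 1 point per sample in 4 group colours. Trf is the highest gene in each group (294 FPKM in WT vehicle), and Tfrc and Steap3 are the lowest 2, near or below 1 FPKM.

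Across the 13 samples and 3966 other genes, the genes most like Steap4 in log2 CPM were Tnfrsf1a (Pearson r = 0.952), Lbp (0.940), B4galt1 (0.934), Litaf (0.923) and Cd302 (0.921). Those most like Hamp were Hgs (0.935), Apoa5 (0.881), Shc1 (0.864), Mex3c (0.817) and Azgp1 (0.816). No gene was on both lists of 5. The points share libraries, groups and scaling factors, so these values only describe which genes had the same profile.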

How the data were processed

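Polyadenylated liver RNA was sequenced, and the submitters' processing notes name Trimmomatic, STAR, Cufflinks and mm10, without versions. Deposited count files have the layout of STAR gene counts, per the file headers, with whole numbers. The column of the gene's own strand, used here, held 99.5% to 99.6% of stranded reads. Rows naming no gene (61.3% to 69.0% of reads) were left out. The deposited FPKM values have the layout of a Cufflinks gene table, per the file headers, with 24886 entries, and 277 names with several entries were left out.

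LKO vehicle 3 and 4 were summed. The edgeR 4.0.16 quasi-likelihood test (R 4.3.3, TMM, filterByExpr by group) was fitted once to 13 samples with 1 mean per group and 9 residual degrees of freedom, for 5 contrasts, with Benjamini-Hochberg adjustment over 9644 genes. It was tested on simulated data. DESeq2 1.42.0 on counts and limma 3.58.1 on log2(FPKM + 1) or log2(FPKM + 0.1) served as alternatives, with no filter or with at least 0.5 FPKM in 3 samples. Reads on genes without Rn45s were 1704479 to 3551398 per library, which sets the precision of scarce genes.

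The members, the pathway lists and the marker lists were chosen with earlier results of these data known. Named were all members and Rbbp5, pathway genes called in a contrast, and the gene with the largest absolute fold change in each list and pairwise contrast at a mean log2 CPM of at least 2. Likeness used genes of at least 3. Genes outside this rule (Hspa5, Ddit3, Bmp6, Id1, and values printed for a named gene in a further contrast) were chosen after their values were seen. No label ties each library to 1 mouse, so p-values measure the spread between these samples, which may be partly technical. Gene coordinates are from GENCODE M21 (mm10). Promoters are from RefSeq (GRCm38.p6) for 8 of the 10 members, and Trf and Slc40a1 were not analysed there.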

Additional observations from a re-analysis of the deposited data

Results flagged for a closer look

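The tunicamycin effect on Slc40a1 was 0.37 ± 0.20 (SE) higher in LKO than in WT on the log2 scale. Each of the 3 WT tunicamycin samples lay below the WT vehicle mean of 38.8 CPM, and each of the 4 LKO tunicamycin samples lay above the LKO vehicle mean of 43.2 CPM. The edgeR test of this difference gave an adjusted p of 0.981 and an unadjusted p of 0.0860, so it did not pass, and its adjusted p ranged from 0.632 to 0.99996 over 25 alternatives.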

How the results depend on the processing

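The choices were tried in 26 alternatives (25 for the interaction), 13 of which left out 1 sample. Of 1290 recomputed fold changes of members, 1216 counted as the same. For tunicamycin in WT this meant a shift smaller than the SD within groups, whatever the side of the threshold, and 5 moved further. In the other comparisons it meant the same direction and side of the threshold. There 12 passed that had not, and 57 changed sign, all of values no larger than 0.23. In WT, outside that count, Tfrc (-0.13) changed sign in 2 alternatives, and Tfr2 (0.13) and Ftl1 (-0.03) in 1 each. Leaving out WT tunicamycin 3 with LKO vehicle 2 was added after seeing the data. Causes of the changes were not tested unless stated. Steap3, Tfrc and most regulators had few reads, which limits their precision.

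For tunicamycin in WT, the count of members called (1) became 4 without a filter, 3 by DESeq2, 3 without WT tunicamycin 3 and LKO vehicle 2, and 0 with only the groups compared or from FPKM (3 settings). Leaving out 1 sample gave 0 to 3: 3 without WT tunicamycin 3, 1 without any LKO vehicle sample, and 0 without any other. The other iron genes called there (1) became 4 under total count scaling, 2 without Rn45s, 6 without a filter, 4 by DESeq2, 3 with 14 libraries, 0 with only the groups compared, 3 with reads on either strand, 0 from FPKM (3 settings) and 11 in the added analysis. Leaving out 1 sample gave 0 to 10 (10 without WT tunicamycin 3, 2 without LKO vehicle 1, 3 without LKO vehicle 2 or the summed sample). Among all genes, 35 were called in the main analysis, 289 without a filter and 152 by DESeq2. There were 148 under total count scaling, 53 with reads on either strand and 7 with only the groups compared. Leaving out WT tunicamycin 3 gave 615 (6.19% of genes tested), and the added analysis 650 (6.57%). The counts of iron genes thus moved together with those of all genes, and nothing is read from them.

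In the comparisons with none called, LKO tunicamycin gave 1 member and 2 other genes without a filter, and 4 and 5 in the added analysis. LKO against WT with vehicle gave 1 other gene without a filter and 1 in the added analysis. After tunicamycin it gave 1 member under total count scaling, 3 members and 1 other gene without a filter, and 1 and 1 in the added analysis. Leaving out 1 sample gave 0 to 1 for members in LKO and after tunicamycin, and 0 to 1 for other genes in these 3 comparisons, in each case 1 without WT tunicamycin 3. Among all genes, calls for tunicamycin in LKO went from 3 to 153 without a filter, 67 without WT tunicamycin 3 and 269 in the added analysis. In the same settings they went from 4 to 84, 17 and 21 between genotypes with vehicle. After tunicamycin they went from 83 to 261, 64 (0.644% of genes tested) and 79 (0.798%), and to 164 under total count scaling. Calls among all genes thus also rose without a filter and under total count scaling, and nothing about iron genes is read from the added calls. No alternative called an iron gene for the interaction. Total count scaling moved the median of all genes by -0.19 for tunicamycin in WT and by 0.15 after tunicamycin and for the interaction.

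Correlations of same-numbered deviations were small, -0.118 to 0.117. Between genotypes with vehicle the own number was highest for each number (0.025, 0.020 and 0.034). After tunicamycin it was highest for numbers 1 and 2 (0.117 and 0.056) but not 3. Between treatments it was highest only for number 2 in LKO (0.063). Whether same-numbered samples share an origin was not tested. With the replicate block, 0 members and 0 other iron genes were called for tunicamycin in WT, and the counts of 0 elsewhere stayed. The block changed the sign of Tfr2 in LKO (0.014) and of the Trf (0.0012) and Cp (0.042) interactions.

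Other sign changes were of small values. Tfr2 in WT was -0.060 under total count scaling. Tfr2 in LKO was 0.0019 with DESeq2 size factors, 0.00075 without Rn45s, 0.025 with 14 libraries, 0.0039 with only the groups compared, 0.013, 0.016 and 0.013 from FPKM, and 0.10 in the added analysis. Tfr2 with vehicle was 0.0012 with only the groups compared and 0.062, 0.071 and 0.062 from FPKM. Tfr2 after tunicamycin was 0.0095 under total count scaling and 0.050, 0.059 and 0.050 from FPKM, and its interaction was 0.014 under total count scaling. With vehicle, Fth1 was 0.028 in each FPKM setting, Ftl1 was 0.041 with 14 libraries, 0.047 from FPKM and 0.043 in the added analysis, and Slc40a1 was -0.021 in the added analysis. Trf after tunicamycin was -0.10 in the added analysis, its interaction was 0.060 from FPKM, and the Cp interaction was 0.064 under total count scaling and 0.21 from FPKM.

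Leaving out 1 sample gave -0.17 to 0.54 for the Steap3 interaction, -0.10 to 0.61 for Trf after tunicamycin, -0.56 to 0.16 for the Trf interaction and -0.44 to 0.22 for the Cp interaction. It gave -0.068 to 0.10 for Tfr2 in LKO, and with vehicle -0.11 to 0.059 for Tfr2, -0.16 to 0.021 for Fth1, -0.11 to 0.043 for Ftl1 and -0.020 to 0.26 for Slc40a1. For tunicamycin in WT the ranges were -0.30 to 0.13 for Tfrc and -0.15 to 0.089 for Ftl1.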

Other observations

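Markers of bile duct cells, a source of Lcn2 that the liver also holds, differed between the same samples. The sum of 6 such markers was 8.60 to 11.7 CPM in WT vehicle, 42.5, 31.9 and 8.49 CPM in WT tunicamycin 1, 2 and 3, 17.7, 55.4 and 41.1 CPM in the LKO vehicle samples and 36.1 to 111 CPM in LKO tunicamycin. It was lowest in WT tunicamycin 3, and Cftr was at 0 in both WT groups. The sum of 8 hepatocyte markers was 15877 to 27667 CPM over all 13 samples, and that of 6 lymphocyte markers 3.46 to 6.62 CPM. The hepatocyte marker Ass1 was listed at 0 in LKO tunicamycin. Lymphocyte markers at 0 were Cd79a and Cd8a in WT vehicle, Cd3e, Cd79a and Nkg7 in WT tunicamycin, and Cd3e in LKO vehicle.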
